A study of Mus musculus with 8 samples.

Results

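The 9 genes of the Wnt response described here, of 28786 genes named on the array, are the feedback inhibitors Axin2, Nkd1 and Nkd2, the receptors Tnfrsf19 and Lgr5, the transcription factors Lef1 and Tcf7, and the secreted Wnt agonists Rspo2 and Rspo3. They were chosen by gene name, with every probe of each, because their levels in these same co-cultures were already known. The values below are therefore a description of the members. Where a fit over all genes called one of them, the call is given beside the share of all genes called, and nothing is read from it. The array held 17 probes for them, of which 13 passed the filter on dim probes (in 1 or more groups, both arrays had to read Cy3 well above background), and each of the 9 genes kept at least 1 probe.

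Canonical Wnt signalling works by keeping beta-catenin from being destroyed, so that it enters the nucleus and joins TCF and LEF proteins at target genes. Several of those targets feed back on the pathway: Axin2 is a scaffold of the complex that destroys beta-catenin, and the Naked cuticle proteins Nkd1 and Nkd2 bind Dishevelled and dampen the signal. R-spondins act from outside the cell, through Lgr receptors, to keep Frizzled receptors at the surface. In bone, Wnt signals favour the formation and activity of osteoblasts, and Notch signalling is known to hold osteoblast maturation back.

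MC3T3-E1 cells, osteoblasts of a line from mouse calvaria, were in co-culture with tumour cells in every group. Those tumour cells either overexpressed Jagged1, a ligand of Notch, or held a control vector. MRK-003, which blocks the gamma-secretase needed to activate Notch, or its DMSO control was added. This made groups called vector DMSO, Jagged1 DMSO, vector MRK-003 or Jagged1 MRK-003 here, with 2 biological replicates in each of the 4 and thus 8 two-colour arrays. Co-culture RNA was labelled with Cy3 and a commercial mouse reference RNA with Cy5. The sources used here do not give the tumour line, its species, doses, times or any separation of osteoblasts before extraction. In such bulk RNA, fewer cells of a type and less RNA per cell cannot be told apart. A level below is the log2 ratio of Cy3 to Cy5 for 1 probe, so levels are compared between groups for the same probe and never between genes.

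Replicate 1 of every group lay on slide 1 and replicate 2 on slide 2, and slide 2 was dimmer: the median Cy3 signal was 164.7 to 203.6 on slide 1 and 76.5 to 117.2 on slide 2. The labels were checked on Notch pathway genes. Hey1, a Notch target, was higher by 3.78 on the log2 scale with Jagged1 than with vector in DMSO (limma, adjusted p = 0.00224) and Jag1 itself by 1.27 (limma, adjusted p = 0.0190), whereas Heyl differed by 0.32 (limma, adjusted p = 0.382). In MRK-003 the same differences were 0.34 for Hey1 and 0.12 for Jag1, and neither passed. Whether the Jag1 probe read RNA of the tumour cells, of the osteoblasts or of both was not tested. With Jagged1 cells, Hey1 was lower by 5.32 in MRK-003 than in DMSO (limma, adjusted p = 0.00035) and Jag1 by 1.28 (limma, adjusted p = 0.00877). Heyl was lower by 0.40 there and did not pass (limma, adjusted p = 0.107). With vector cells Hey1 was lower by 1.88 in MRK-003 and did not pass (limma, adjusted p = 0.129). These genes thus checked the Jagged1 label in DMSO and the MRK-003 label with Jagged1 cells. They did not check the Jagged1 label in MRK-003 or the MRK-003 label with vector cells. The Nrarp probe was well above background on 4 of 8 arrays, with a mean Cy3 signal of 52.6 over the arrays, and was not used as a check. All 10 osteoblast markers listed were well above background on every array, with a mean level of 1.09 in Jagged1 DMSO and 1.33 to 1.39 in the other groups. The markers did not move alike, as their Jagged1 differences in DMSO ran from -1.14 (Alpl) to 0.20 (Sparc). Of 10 epithelial markers 7 were measured, with group means of -3.22 to -3.0, Cdh1, Cldn4 and Esrp1 being dim, and 6 macrophage markers had group means of -3.04 to -2.91. No marker of these lists, nor of the chondrocyte and adipocyte lists, passed the test in any comparison. The part of other cells in the results below was not tested.

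Promoter sequences were at hand for 6 of the 9 genes, as 11 windows of 300 bases from RefSeq on GRCm38.p6. Nkd2 and Tnfrsf19 are shown because their levels moved together most closely (below). The first 2 lines are the 250 bases before the annotated start, at chr13:73847632-73847881 and chr14:61046856-61047105, both on the minus strand and both outside the annotated span of the gene. The last line is a window at chr14:61038171-61038200, before a further Tnfrsf19 start that lies inside the gene. Capitals mark a match to a searched motif.
Nkd2 promoter: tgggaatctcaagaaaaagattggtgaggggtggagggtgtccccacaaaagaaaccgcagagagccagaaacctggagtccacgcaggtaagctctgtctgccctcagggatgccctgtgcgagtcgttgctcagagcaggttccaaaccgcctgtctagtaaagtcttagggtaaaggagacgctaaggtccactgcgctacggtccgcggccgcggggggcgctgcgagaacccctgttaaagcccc
Tnfrsf19 promoter 1: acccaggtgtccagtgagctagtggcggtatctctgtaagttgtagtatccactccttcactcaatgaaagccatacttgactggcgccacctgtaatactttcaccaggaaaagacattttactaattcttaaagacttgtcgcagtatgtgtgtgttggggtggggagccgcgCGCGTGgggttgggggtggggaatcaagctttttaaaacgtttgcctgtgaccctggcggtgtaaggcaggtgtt
Tnfrsf19 promoter 2, window: ctgaatgggggATCAAAGtgacaaactaga

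Both strands of the 300 bases were searched for 5 motifs. CTTTGAA and CTTTGAT are forms of the TCF/LEF core, GTGGGAA is the core bound by the Notch partner RBPJ, and CACGTG (an E-box, which reads the same on both strands) and CACGCG (a class C site) are of the kind Hes and Hey proteins bind. Of 32851 mouse promoters, 8.65% held either TCF/LEF form, 6.38% GTGGGAA, 7.15% CACGTG and 9.27% CACGCG. The second Tnfrsf19 promoter held CTTTGAT on the opposite strand, beginning 202 bases before the start (ATCAAAG above), as well as CACGTG and CACGCG, and the first held CACGCG only. Lef1 promoters held GTGGGAA (the same site in 2 overlapping windows) and CACGTG. The windows of Nkd1, Nkd2, Axin2 and Tcf7 held none of the 5. A match is a string of letters, not a shown binding site, and its absence says nothing of sequence outside the window.

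**Figure D1:**
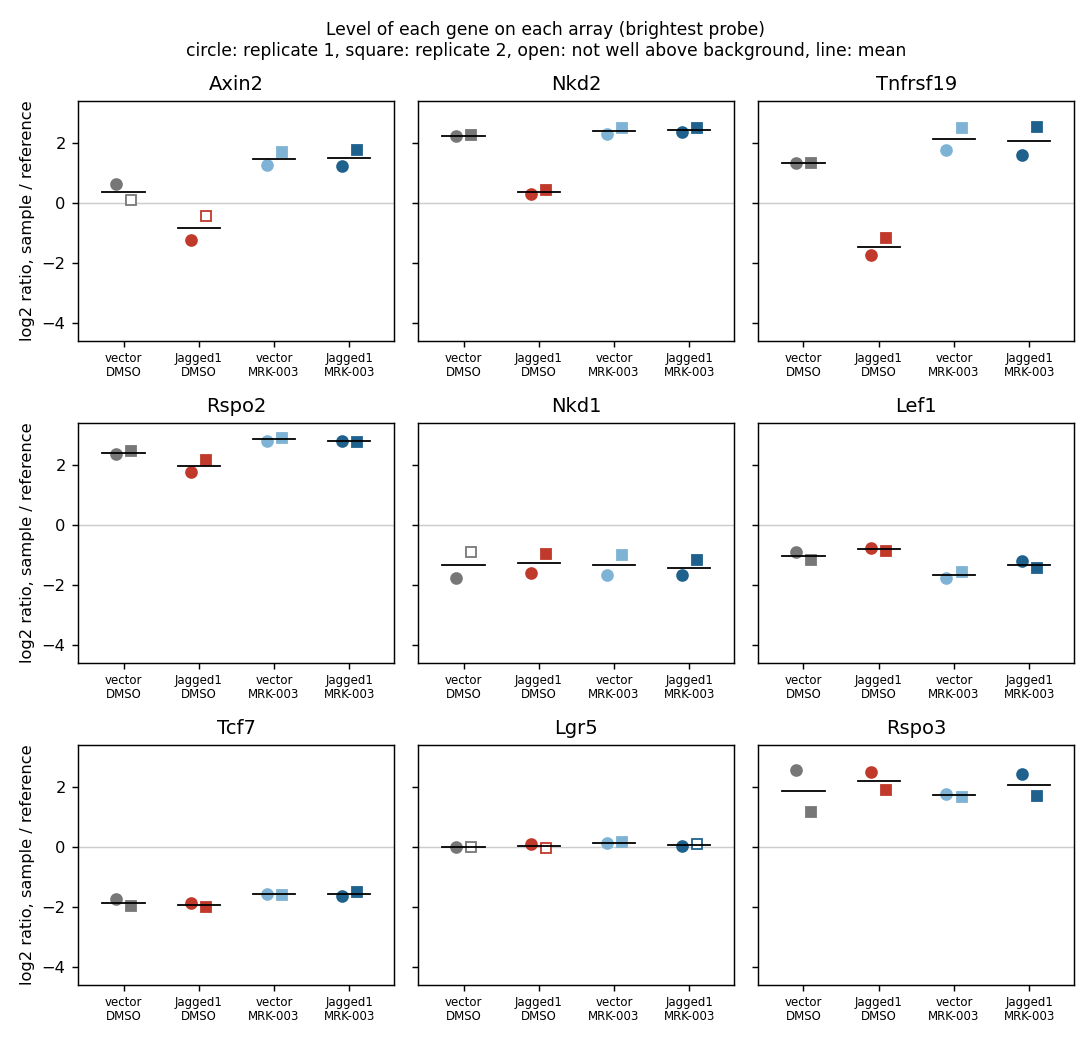
Level of the brightest probe of each gene, as the log2 ratio of co-culture (Cy3) to reference RNA (Cy5), in the 4 groups; circles are replicate 1 (slide 1), squares replicate 2 (slide 2), open symbols are not well above background in Cy3, and lines are means of 2 arrays. Axin2, Nkd2, Tnfrsf19 and Rspo2 have both Jagged1 DMSO arrays below all others, and Nkd1 and Rspo3 differ more between slides than between groups.

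Among the feedback inhibitors, Nkd2 was low in one group and level in the other 3. Its brighter probe read 2.22 and 2.24 in vector DMSO, 0.28 and 0.42 in Jagged1 DMSO, 2.29 and 2.48 in vector MRK-003, and 2.36 and 2.50 in Jagged1 MRK-003. Both Jagged1 DMSO arrays lay below all 6 others, whose values spanned less than 0.3. Jagged1 DMSO was lower than vector DMSO by 1.88 ± 0.12 (SE, n = 2 per group), or 3.68-fold, with -1.94 on slide 1 and -1.82 on slide 2. In MRK-003 the same difference was 0.05 ± 0.12. MRK-003 was higher than DMSO by 2.08 ± 0.12 (4.22-fold) with Jagged1 cells and by 0.15 ± 0.12 with vector cells.

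A second Nkd2 probe, whose start lies 117 bases from the first on chromosome 13 in mm7, was dimmer and gave the same pattern at a smaller size. It read 1.12 and 0.38 in vector DMSO, 0.09 and -0.12 in Jagged1 DMSO, 1.27 and 0.70 in vector MRK-003, and 1.15 and 0.81 in Jagged1 MRK-003. Its Jagged1 DMSO value on slide 2 was not well above background. The Jagged1 difference in DMSO was -0.76 on this probe and that of MRK-003 with Jagged1 cells 0.99.

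Axin2, the scaffold whose transcription is a standard readout of beta-catenin activity, differed between groups on its single probe. It read 0.61 and 0.10 in vector DMSO, -1.25 and -0.42 in Jagged1 DMSO, 1.25 and 1.68 in vector MRK-003, and 1.24 and 1.78 in Jagged1 MRK-003. The order of the means was Jagged1 DMSO, vector DMSO and then the MRK-003 groups, which were 0.04 ± 0.34 apart. With MRK-003 the level was higher by 2.35 ± 0.34 (5.09-fold) with Jagged1 cells, and by 1.11 ± 0.34 (2.15-fold) with vector cells, where it was 0.63 on slide 1 and 1.58 on slide 2. The Jagged1 difference in DMSO, -1.20 ± 0.34, was -1.87 on slide 1 and -0.52 on slide 2. On slide 2 the Cy3 signal was not well above background in either DMSO group, so 1 of 2 arrays measured the probe in each. The probe therefore passed the filter through the MRK-003 groups alone, where its level was highest. Without replicate 1 of Jagged1 DMSO the Jagged1 difference in DMSO was -0.78. It was -0.71 with normexp without a limit on the local background and -3.53 from the authors' deposited table, which differs from the values here in several steps at once. Under the same 2 settings the difference of MRK-003 with Jagged1 cells was 1.24 and 4.44.

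Nkd1 showed no such pattern. It read -1.78 and -0.91 in vector DMSO, -1.60 and -0.97 in Jagged1 DMSO, -1.66 and -1.0 in vector MRK-003, and -1.69 and -1.17 in Jagged1 MRK-003. In each group slide 1 was the lower, and the 4 groups overlapped. Differences between groups were -0.14 to 0.06, each with an SE of 0.38 from the fit without the slide. Within slides 1 and 2 they were 0.18 and -0.06 for Jagged1 in DMSO, and -0.09 and -0.20 for MRK-003 with Jagged1 cells. The probe was faint, with Cy3 signals of 41 to 68, and was not well above background on the slide 2 array of vector DMSO.

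Of the receptors, Tnfrsf19 (also called Troy), a member of the TNF receptor superfamily that Wnt signalling induces in several tissues, had the widest range of group means of the 9 genes. It read 1.32 and 1.34 in vector DMSO, -1.75 and -1.17 in Jagged1 DMSO, 1.74 and 2.49 in vector MRK-003, and 1.59 and 2.52 in Jagged1 MRK-003. The 2 Jagged1 DMSO arrays stood far below the rest, and vector DMSO lay below all 4 MRK-003 arrays. Jagged1 DMSO was lower than vector DMSO by 2.79 ± 0.37 (6.93-fold), with -3.07 on slide 1 and -2.51 on slide 2. MRK-003 was higher than DMSO by 3.52 ± 0.37 (11.5-fold) with Jagged1 cells and by 0.79 ± 0.37 with vector cells. The latter was 0.42 on slide 1 and 1.16 on slide 2, and 0.41 without replicate 2 of vector MRK-003. In MRK-003 the Jagged1 and vector groups were -0.06 ± 0.37 apart. A second probe named for Tnfrsf19 starts 10342 bases away on chromosome 14 in mm7 and was above background on 1 array only, so it could neither repeat nor contradict these values.

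Lgr5, an R-spondin receptor and stem cell marker in other tissues, was at the limit of the array. Its brighter probe was well above background on 5 of 8 arrays, with Cy3 signals of 35 to 68, passed the filter through vector MRK-003 alone, and read between -0.05 and 0.14 on all arrays. Differences between groups were -0.08 to 0.15 with an SE of 0.10. At such signals the offset of 50 added to each spot draws ratios towards 0, and the authors' deposited table gave 1.00 for MRK-003 against DMSO with vector cells, where the value here was 0.15. The second Lgr5 probe was dim on every array.

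On the brightest probe of each gene, the 2 transcription factors differed by less between groups than Nkd2, Axin2 and Tnfrsf19. This did not hold between the dimmer Tcf7 probe and the second Nkd2 probe, whose group means spanned 1.05 and 1.00. Lef1, a partner of beta-catenin at target genes and itself a frequent Wnt target, was lowest with MRK-003. Its brighter probe read -0.91 and -1.18 in vector DMSO, -0.78 and -0.86 in Jagged1 DMSO, -1.78 and -1.56 in vector MRK-003, and -1.22 and -1.46 in Jagged1 MRK-003. All 4 DMSO arrays lay above all 4 MRK-003 arrays. MRK-003 was lower than DMSO by 0.62 ± 0.14 (1.54-fold) with vector cells and by 0.52 ± 0.14 (1.43-fold) with Jagged1 cells. The Jagged1 difference was 0.22 ± 0.14 in DMSO and 0.33 ± 0.14 in MRK-003.

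The second kept Lef1 probe crosses introns, its 60 bases spanning 18162 bases of chromosome 3 in mm7, and ran the same way. It differed by -0.60 for MRK-003 with vector cells, where the arrays overlapped, and by -0.73 with Jagged1 cells, where they did not. The remaining Lef1 probe was dim on all 8 arrays. Lef1 thus differed in sign from Nkd2, Axin2 and Tnfrsf19 in the comparisons of MRK-003 with DMSO.

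Tcf7, which encodes TCF1, gave unlike sizes on its 2 probes. The brighter read -1.76 and -1.97 in vector DMSO, -1.87 and -2.0 in Jagged1 DMSO, -1.59 and -1.60 in vector MRK-003, and -1.63 and -1.51 in Jagged1 MRK-003. The dimmer probe read -3.34 and -2.96 in vector DMSO, -4.20 and -3.63 in Jagged1 DMSO, -3.0 and -2.73 in vector MRK-003, and -3.10 and -2.80 in Jagged1 MRK-003. On the dimmer probe both Jagged1 DMSO arrays were the lowest, and on the brighter one they overlapped vector DMSO. The Jagged1 difference in DMSO was therefore -0.07 ± 0.11 on the brighter probe and -0.77 on the dimmer. For MRK-003 with Jagged1 cells the differences were 0.36 ± 0.11 and 0.97. The probes start 717 bases apart on chromosome 11 in mm7 and are annotated to 1 transcript. With normexp without a limit on the local background, the brighter probe gave 0.53 for the Jagged1 difference in DMSO, the opposite sign.

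**Figure D2:**
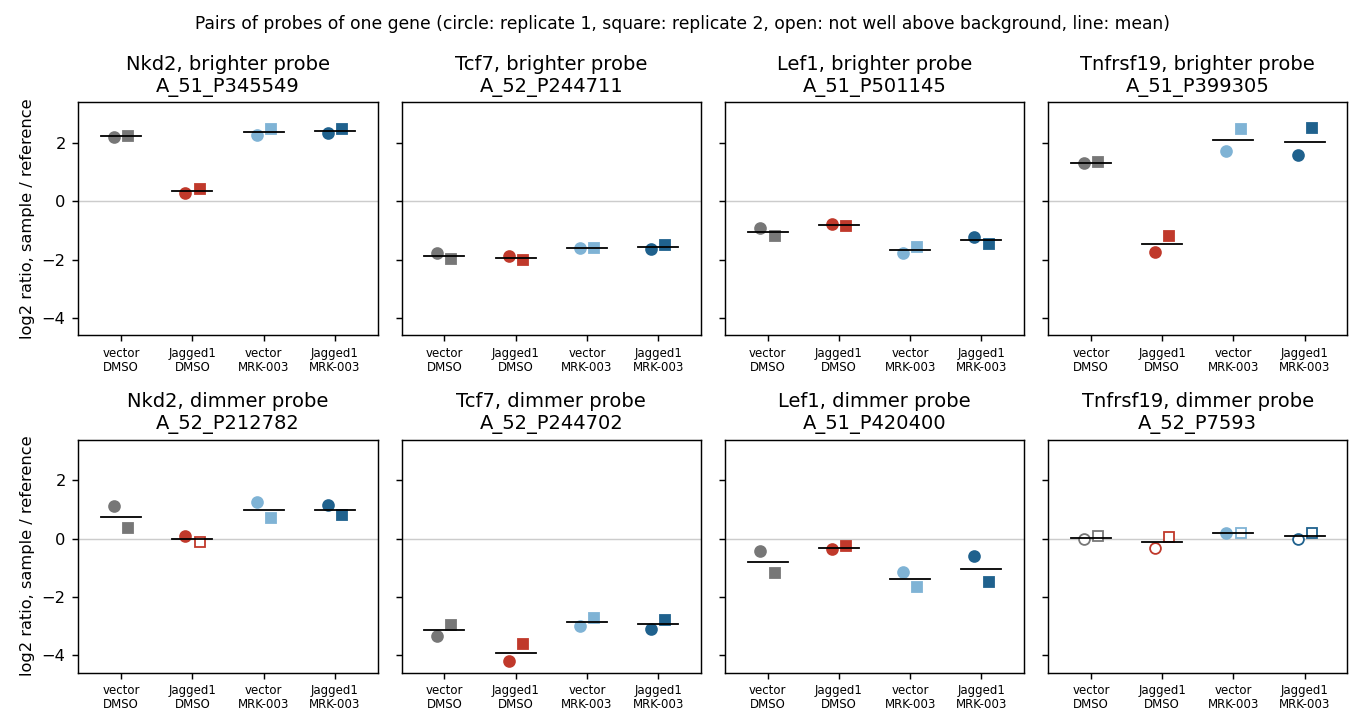
Levels on 2 probes each of Nkd2, Tcf7, Lef1 and Tnfrsf19 as log2 ratios of co-culture to reference, by group; circles are replicate 1, squares replicate 2, open symbols are not well above background, and lines are means. Both Nkd2 probes are lowest in Jagged1 DMSO, the Tcf7 probes differ there (-0.07 against -0.77 from vector DMSO), and the dimmer Tnfrsf19 probe is above background on 1 array.

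The 2 secreted agonists differed from each other. Rspo2 read 2.34 and 2.46 in vector DMSO, 1.76 and 2.15 in Jagged1 DMSO, 2.79 and 2.89 in vector MRK-003, and 2.79 and 2.76 in Jagged1 MRK-003. Both Jagged1 DMSO arrays were below vector DMSO, and all MRK-003 arrays were above all DMSO arrays. The Jagged1 difference in DMSO was -0.44 ± 0.14 (1.36-fold) and -0.07 ± 0.14 in MRK-003. MRK-003 was higher than DMSO by 0.82 ± 0.14 (1.76-fold) with Jagged1 cells and by 0.44 ± 0.14 (1.36-fold) with vector cells. A second Rspo2 probe was dim on all arrays. The Jagged1 difference in DMSO was -1.0 with normexp without a limit on the local background and -0.25 without replicate 1 of Jagged1 DMSO.

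The Rspo3 probe with the higher signal is shown because it crosses an intron (its 60 bases span 1720 bases at chr10:29285381-29287100, minus strand, mm7), so it reads spliced RNA.
Rspo3 probe: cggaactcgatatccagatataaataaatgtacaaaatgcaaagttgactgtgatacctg
It read 2.56 and 1.14 in vector DMSO, 2.48 and 1.89 in Jagged1 DMSO, 1.75 and 1.67 in vector MRK-003, and 2.42 and 1.67 in Jagged1 MRK-003. The 2 vector DMSO arrays, 1.42 apart, enclosed all the others. Differences between groups were -0.14 to 0.34 with an SE of 0.48, smaller than the spread between replicates. The reference signal of this probe was faint, with Cy5 signals of 37 to 68, and the filter read Cy3 only. Its ratios are limited by that, and what share of the spread comes from it was not tested. The second Rspo3 probe, read above background on all arrays, stayed between -0.08 and 0.36.

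**Figure D3:**
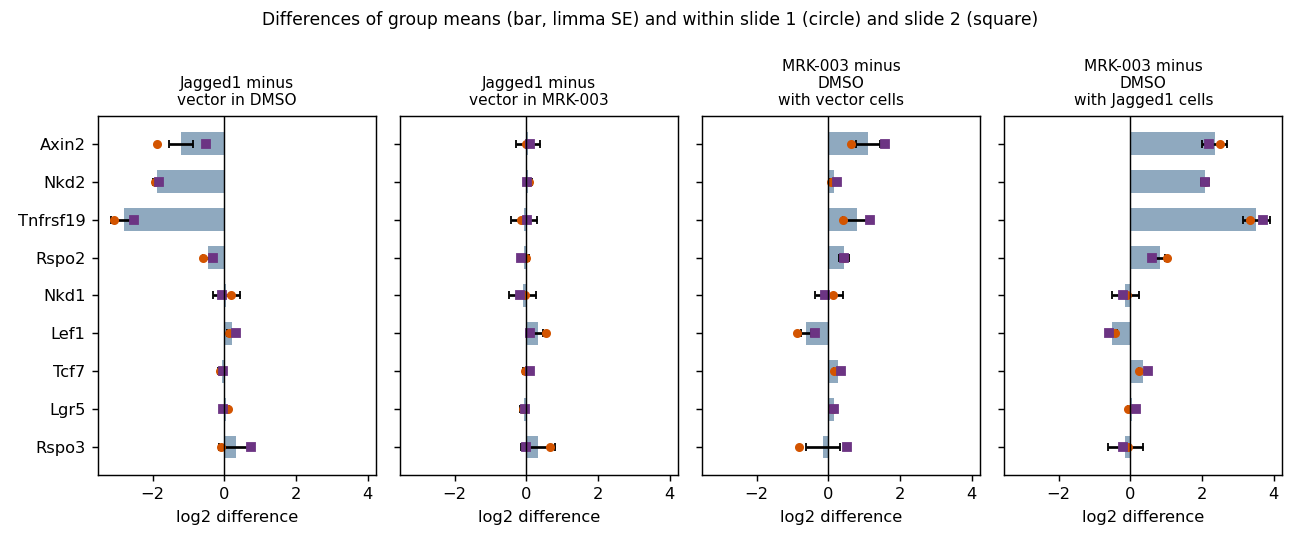
Difference of group means of each gene (bars, log2 scale, with the SE of the limma fit) in 4 comparisons, and the same difference within slide 1 (circles) and slide 2 (squares). Tnfrsf19, Nkd2 and Axin2 lie at -2.79, -1.88 and -1.20 for Jagged1 in DMSO and at 3.52, 2.08 and 2.35 for MRK-003 with Jagged1 cells, and all 3 lie within 0.1 of 0 for Jagged1 in MRK-003.

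Counted over the 9 genes, the comparison of Jagged1 with vector in DMSO had 4 positive and 5 negative differences, with a median of -0.07 against -0.01 over all 23441 genes measured. The limma fit over all genes called 42 genes in that comparison (adjusted p under 0.05), which is 0.179% of those tested, 33 higher and 9 lower; with arrays centred on their medians in place of loess the split was 34 higher and 31 lower. Leaving out any 1 array left 3 to 25 calls, the fewest without replicate 2 of vector DMSO or replicate 1 of Jagged1 DMSO. Of the 9, Nkd2 was among them. With the slide as a block the fit called 874 genes (3.73%), and of the 9 Nkd2 and Tnfrsf19. Both arrays lay lower than both vector arrays for Nkd2, Tnfrsf19, Axin2 and Rspo2, and higher for Lef1; over all genes 21.9% lay lower in this way and 20% higher. The genes were picked with these values in view, so nothing is read from the counts.

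MRK-003 with Jagged1 cells gave 6 positive and 3 negative differences, with a median of 0.36 against 0.01 over all genes. The fit called 464 genes (1.98%), and of the 9 Nkd2, Tnfrsf19, Axin2 and Rspo2, all higher. Axin2 had passed the filter through the MRK-003 groups alone, where it was high, so its call carries no weight. With the slide as a block the fit called 2184 (9.32%) and the same 4. With 1 array left out it called 31 (without replicate 1 of Jagged1 DMSO) to 348. Non-overlapping arrays were higher for 5 of the 9 and lower for 1, beside 23.8% and 20.7% of all genes. Axin2 is among the 5, so this count carries no weight either.

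With vector cells, MRK-003 gave 7 positive and 2 negative differences, with a median of 0.15. Non-overlapping arrays were higher for 6 of the 9 and lower for 1, beside 13.7% and 12.2% of all genes. Axin2 and Lgr5 are among the 6. Axin2 had passed the filter through the MRK-003 groups alone and Lgr5 through vector MRK-003 alone, where each was high. The count therefore carries no weight. The limma fit called 0 genes of all those tested (0%), with 946 at an unadjusted p under 0.05, and 7 (0.0299%) with the slide as a block, none of them among the 9. For Jagged1 against vector in MRK-003 the median was 0.03, and non-overlapping arrays were higher for 1 (Lef1) and lower for 1 (Lgr5), beside 8.33% and 7.64% of all genes. Lgr5 carries no weight in this comparison either, for the same reason. Here limma called 0 genes (0%), with 56 at an unadjusted p under 0.05, and 0 with the block.

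The comparisons share groups: Jagged1 DMSO enters both the Jagged1 and the MRK-003 comparison, with opposite signs, so a low value there moves both. The Jagged1 difference in DMSO minus that in MRK-003 was -2.73 ± 0.53 for Tnfrsf19, -1.92 ± 0.16 for Nkd2, -1.24 ± 0.48 for Axin2, -0.38 ± 0.20 for Rspo2 and -0.11 ± 0.20 for Lef1. That of Axin2 was -0.17 with normexp without a limit on the local background and -3.51 from the authors' deposited table, and that of Rspo2 was -0.18 without replicate 1 of Jagged1 DMSO. For this interaction limma called 2 genes (0.00853%), none of the 9, and 89 (0.38%) with the slide as a block, with Nkd2 and Tnfrsf19 among them.

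Spread between replicates differed widely among the 9. The residual SD was 0.10 for Nkd2 and Tcf7 and 0.15 for Lef1 and Rspo2, near or below the median of 0.14 over all genes. It was 0.42 for Axin2, 0.47 for Tnfrsf19, 0.48 for Nkd1 and 0.61 for Rspo3, all in the top 5% of genes. Over the 8 arrays Nkd2 and Tnfrsf19 correlated at r = 0.98, Tnfrsf19 and Axin2 at 0.95, Axin2 and Rspo2 at 0.96, and Lef1 and Rspo2 at -0.87. These are descriptions over 8 arrays that share 2 slides, 1 reference RNA and 4 group means.

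Genes whose levels ran most like those of Axin2 and Tnfrsf19 were sought among 2027 genes well above background on every array with a range of at least 1. For Axin2 the closest were Pcolce2 (r = 0.995 over the 8 arrays), Tox (0.989), LOC676640 (0.986), the transcript TC1481003 (0.985) and Pola1 (0.983). For Tnfrsf19 they were Tprg and Trp63 (both 0.997), Rab30, Tube1 and Adamtsl3 (each 0.996). Trp63, a p53 family transcription factor, had group means of 2.73 in vector DMSO, 0.87 in Jagged1 DMSO, 3.47 in vector MRK-003 and 3.46 in Jagged1 MRK-003.

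The rest of the pathway was read from 100 textbook Wnt genes in 7 lists, chosen by role, of which 90 were measured. None passed for Jagged1 against vector in DMSO by limma, with 20 at an unadjusted p under 0.05, and the median was 0.004. The smallest p belonged to the receptor Fzd4 at 1.23 ± 0.17 (limma, adjusted p = 0.0679) and the ligand Wnt10a at -1.89 ± 0.27 (limma, adjusted p = 0.0807). With the slide as a block 11 passed: Bambi, Ccn4, Ccnd1, Fzd4, Fzd6, Porcn, Rnf43, Twist1, Wnt10a, Wnt10b and Wnt6.

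With Jagged1 cells, 7 of the 90 genes passed for MRK-003 against DMSO (7.78%, beside 1.98% of all genes), 6 higher and 1 lower, around a median of 0.04. Wnt10a, a ligand that favours osteoblast over fat cell fate, read 0.35 and 0.26 in vector DMSO, -2.05 and -1.12 in Jagged1 DMSO, 0.92 and 1.06 in vector MRK-003, and 0.92 and 1.06 in Jagged1 MRK-003. It rose by 2.57 ± 0.27 with MRK-003 and Jagged1 cells (5.96-fold; limma, adjusted p = 0.0117), on slides 1 and 2 by 2.97 and 2.18. Porcn, the enzyme that attaches the lipid Wnts need for secretion, rose by 1.13 ± 0.13 (limma, adjusted p = 0.0143). These were 2 of 17 measured genes of ligands and their secretion.

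Among 15 receptors and co-receptors, Fzd6 rose by 0.89 ± 0.12 (limma, adjusted p = 0.0201) and Fzd4 fell by 1.32 ± 0.17 (limma, adjusted p = 0.0176). Fzd4 read -0.19 and -0.46 in vector DMSO, 0.89 and 0.92 in Jagged1 DMSO, -0.45 and -0.69 in vector MRK-003, and -0.22 and -0.61 in Jagged1 MRK-003, so it was high where Nkd2 was low. Of 14 other targets 3 rose: Twist1, a transcription factor that restrains osteoblast maturation, by 1.20 ± 0.12 (limma, adjusted p = 0.0102), the cyclin Ccnd1 by 0.76 ± 0.12 (limma, adjusted p = 0.0371) and the AP-1 subunit Fosl1 by 0.84 ± 0.15 (limma, adjusted p = 0.0474). Without the slide as a block, none passed in the remaining lists. These were 15 genes of the destruction complex and transduction, 12 antagonists, 11 nuclear factors and 6 genes of the R-spondin axis. With the block, genes of all of these lists but the destruction complex and transduction passed (below).

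The calls changed when 1 array was left out, which also leaves fewer arrays to estimate the spread. Of the 90 genes, 0 passed when replicate 2 of Jagged1 MRK-003 was left out, 2 when its replicate 1 was, 1 without replicate 1 of Jagged1 DMSO and 1 without its replicate 2. Ccnd1 and Fosl1 passed in none of the 8 fits that left out 1 array, and Wnt10a in 6. The differences kept their direction in all 8, at -1.52 to -1.13 for Fzd4, 0.81 to 0.98 for Fzd6, 1.10 to 1.30 for Twist1 and 1.0 to 1.27 for Porcn. They were 0.64 to 0.88 for Ccnd1, 0.63 to 1.05 for Fosl1 and 2.11 to 3.04 for Wnt10a. The 4 fits without a vector array could not change these differences, only their p. With the slide as a block 21 of the 90 passed, the 7 included. Of the others, Rnf43 and Lgr4 (R-spondin axis), Tle4 and Tcf7l2 (nuclear factors), Bambi, Fzd1, Ryk, Wls, Wnt10b and Wnt6 were higher. Bcl9 (a nuclear factor), Wif1 (an antagonist), Ccn4 and Ccn5 were lower.

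**Figure D4:**
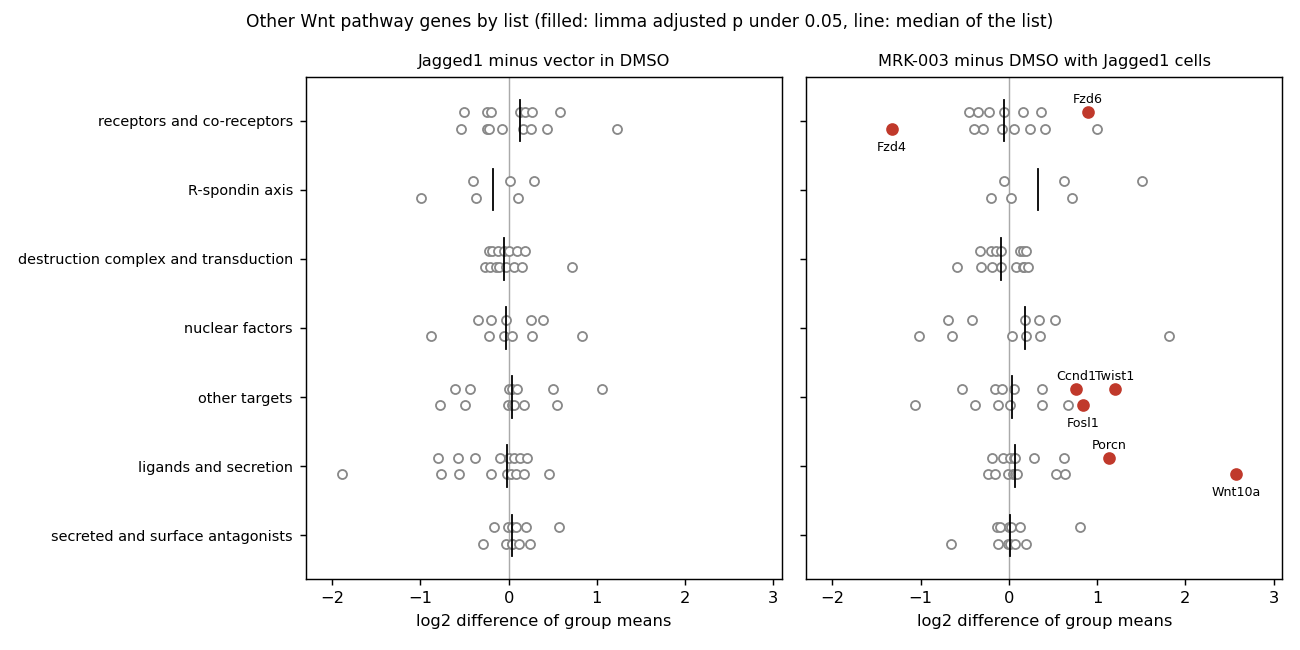
Differences of 90 other Wnt pathway genes (points, log2 scale) by list, for Jagged1 against vector in DMSO and for MRK-003 against DMSO with Jagged1 cells; filled points passed limma at an adjusted p under 0.05 and vertical lines are list medians. No point is filled on the left, and 7 are on the right, from Fzd4 at -1.32 to Wnt10a at 2.57.

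In the other comparisons 0 of the 90 passed by limma, with or without the block. At an unadjusted p under 0.05 there were 1 for Jagged1 in MRK-003, 8 for MRK-003 with vector cells and 13 for the interaction. The 2 smallest p were those of Wnt8b (0.25 ± 0.10) and Tbx3 (0.30 ± 0.16) in the first, and of Btrc (-0.42 ± 0.11) and Twist1 (0.45 ± 0.12) in the second. For the interaction they were Wnt10a (-1.89 ± 0.39) and Fzd4 (1.08 ± 0.24).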

How the data were processed

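RNA of 8 co-cultures (175 ng of total RNA each, per the labels' protocols) was hybridised in Cy3 against a mouse reference RNA in Cy5, without dye swap, so dye bias stays in levels but not in differences between groups. Per the file headers, Agilent Feature Extraction 9.5.3.1 gave the intensity of 45018 spots per array, and its marks for signals well above background or outliers are deposited flags. The deposited value table holds log2 ratios of the authors: each column equals the log2 ratio of the scanner's processed Cy3 to Cy5 signals plus a constant of 0.0106 to 0.0555, with column medians of 0.11 to 0.21. Why a constant was added is not stated.

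From the mean signals, the median local background was subtracted by normexp (offset 50), the background of a spot being limited to its own signal, followed by loess within each array with the 1639 control spots at weight 0. Spots marked as outliers were left out (303 probes) and 7811 dim probes removed, leaving 33060 of 41174 probes. The brightest kept probe stood for each of 23441 genes, 6957 of which had more than 1. Of all probes, 22951 were named through a RefSeq accession and 18223 by the file. limma 3.58.1 in R 4.3.3 fitted 4 group means over all 8 arrays, with Benjamini-Hochberg adjustment over all genes in each of 5 comparisons and a threshold of 0.05. The code was tested on simulated data with independent noise and no slide effect, which cannot show how the fit behaves when arrays share a slide. The SE of a difference comes from the fit to the 8 arrays without the slide, so it includes variation between slides. The 2 arrays per group limit the precision.

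Members, lists, named genes and tests were chosen with earlier results of these data known. Named were all 9 members, pathway genes that passed (else the 2 with the smallest p), the 5 genes most like Axin2 and the widest-ranging member by Pearson's r, and the markers. Replicate numbers match slides in the file headers, and same-numbered samples deviated together in each pair of groups (r = 0.362 to 0.846), so they pair the samples. Alternatives were normexp without the limit, no background subtraction, median centring, no dim filter, the deposited table, the mean over probes, the replicate block, and each array left out.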

Additional observations from a re-analysis of the deposited data

Results flagged for a closer look

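Nkd2 stood out because the Jagged1 difference was negative on both slides in DMSO (-1.94 and -1.82) and positive on both in MRK-003 (0.07 and 0.02). The difference in MRK-003 was only 0.05 ± 0.12, with overlapping arrays. Its sign held under 6 of the 9 alternatives that moved it, so it is not read as a reversal. The differences in DMSO and in MRK-003 were -1.92 ± 0.16 apart. The limma interaction over all genes did not call it without the slide as a block and called it with the block. Nkd2 was chosen with its values known, so neither is read as support.

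For the Notch target Hey1, used as a check of the labels, the Jagged1 difference in DMSO exceeded that in MRK-003 by 3.44 on the log2 scale (limma interaction, adjusted p = 0.0366), with the same direction on both slides.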

How the results depend on the processing

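Genes called for Jagged1 in DMSO (42) numbered 4 with normexp without the background limit, 65 with median centring, 15 from the deposited table, and 3 (without replicate 2 of vector DMSO) to 25 with 1 array left out, each array lowering the count. Those for MRK-003 with Jagged1 cells (464) numbered 72, 262 from the deposited table, and 31 (without replicate 1 of Jagged1 DMSO) to 348 (252 without either vector DMSO array). The interaction (2) gave 0 with normexp without the limit, no background subtraction, the deposited table and the mean over probes, and 0 to 1 with 1 array left out; Jagged1 in MRK-003 gave 0 to 1. Wnt pathway genes called numbered 2 with median centring for Jagged1 in DMSO (0 to 1 with 1 array left out), and for MRK-003 with Jagged1 cells 2 with normexp without the limit, 4 from the deposited table and 0 to 7 with 1 array left out. With the replicate block the counts of genes were 874, 2184, 7 (MRK-003 with vector cells) and 89 (interaction), and of pathway genes 11 and 21; it ended no call. The cause of these changes was not tested. Of the member differences under alternatives, 259 did not move; leaving out an array of another group, or the balanced block, cannot move a difference of 2 groups. Of the 416 that moved, 337 stayed within 1 SD between replicates. For Jagged1 in DMSO and for MRK-003 with Jagged1 cells, the sign was kept under the 9 alternatives that moved Nkd2 and the 8 that moved Tnfrsf19, Axin2 or Rspo2. Cy3 signals near background limit Axin2, Nkd1 and Lgr5, and a faint Cy5 reference signal limits Rspo3.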
